A study of Homo sapiens with 4 samples.

Results

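Receptor tyrosine kinases, a family of cell surface receptors that includes the platelet-derived growth factor receptor PDGFRA, were examined in Huh7, an established human hepatoma cell line. The genes were chosen by symbol: PDGFRA, PDGFRB, KIT, EGFR, ERBB2, ERBB3, MET, MST1R, EPHA2 and DDR1, 10 of the 42169 gene rows of the count table. They were selected with the difference in PDGFRA between the clones already known, so their differences between clones are given below as a description, with no p-value. Total RNA was sequenced from clone 18, labelled as lacking Brf1 and TTP (double knockout, DKO), and from control clone 1, labelled WT, with 2 libraries of each. The TTP protein is made from ZFP36, and Brf1 is here taken as the product of ZFP36L1. Both bind AU-rich elements in mRNAs. Every culture of both clones was given DMSO for 3 h and was then exposed for 10 min to actinomycin D, a transcription blocker, at 5 µg/ml. Each genotype is 1 clone, so that genotype and clone cannot be told apart, and the labels do not say whether the replicate libraries stem from separate cultures.

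The libraries held 10271428 and 16430228 counts on genes for DKO and 9685798 and 12507263 for control. A level at 3 counts corresponds to 0.183 to 0.310 CPM, the count scaled to a library total of 1000000 gene counts. ZFP36 mRNA was at 37.5 and 36.2 CPM in DKO, against 30.0 and 23.3 CPM in control, and ZFP36L1 at 147 and 118 CPM in DKO, against 135 and 109 CPM in control. The labels leave the kind of mutation unstated, so these mRNA levels do not check the genotype. All 10 hepatocyte marker genes examined were measured, with 1 called higher (TTR) and 1 lower (AFP), against 5.37% of all tested genes called. AFP was at 3708 and 3385 CPM in DKO, against 7565 and 8081 CPM in control. TTR was at 143 and 156 CPM in DKO, against 96.9 and 78.3 CPM in control. The list summed to 31961 and 30525 CPM in DKO and 30498 and 30735 CPM in control, a sum that hides such differences of single genes. Of 12 mesenchymal and stellate cell markers, DES, LRAT and PDPN had no reads in any library, whereas 6 had enough reads to be tested. The highest was COL1A2, with 101 and 106 CPM in DKO and 67.2 and 109.8 CPM in control. TAGLN followed with 46.8 and 67.5 CPM in DKO and 39.4 and 61.4 CPM in control. LUM was higher in both DKO libraries than in either control library, at a log2 fold change (DKO over control) of 0.75 (SE 0.28). COL3A1 was lower in both DKO libraries, at -0.73 (SE 0.33), and edgeR's adjusted test called neither. The list summed to 184 and 200.4 CPM in DKO and 134 and 199.96 CPM in control, which overlap. This sum, too, hides such differences of single genes. The part of mesenchymal and stellate cell transcripts in the PDGF receptor values was not tested. Of the 6 endothelial markers 5 had no reads at all, as had 4 of the 6 immune cell markers.

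Receptor tyrosine kinases span the plasma membrane. Binding of a ligand outside the cell brings receptor chains together, which then phosphorylate each other on tyrosines inside the cell, and adaptors that dock there pass the signal to RAS and ERK and to PI3 kinase. In the liver, EGFR and MET are receptors of hepatocytes used in regeneration, whereas the PDGF receptors are best known from stellate cells and fibroblasts. KIT is the receptor of stem cell factor, ERBB2 and ERBB3 pair with other receptors of the EGF family, MST1R (RON) binds macrophage-stimulating protein, EPHA2 binds ephrin-A ligands, and DDR1 binds collagen.

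TTP and its relatives bind the heptamer UAUUUAU, and the 3′ UTRs of the 10 receptors were searched for it. The longest 3′ UTR of each gene in GENCODE release 29 was used, on the transcript strand, and overlapping matches were counted. The heptamer stood in 3 of the 10 (30%), against 36.0% of 11934 tested protein-coding genes, whose 3′ UTRs had a median length of 1406 bases. MET and EPHA2 each had 2 matches and MST1R had 1. They are shown because these letters are what TTP and its relatives recognise, with the heptamer in capitals and 11 bases on each side.
MET chr7:116796948-116796976 (hg38, plus strand): gguuggaagaaUAUUUAUaggcaauacag
MET chr7:116798198-116798226 (hg38, plus strand): aucacguuugcUAUUUAUaaacuuguccu
EPHA2 chr1:16125106-16125134 (hg38, minus strand): acuggggacuuUAUUUAUuucuaguucuu
EPHA2 chr1:16124382-16124410 (hg38, minus strand): uauuuuuuuuaUAUUUAUuguuagaaaau
MST1R chr3:49887099-49887127 (hg38, minus strand): ccugcaacaugUAUUUAUggagugccugc
PDGFRA, with a 3′ UTR of 2975 bases, had no match, nor had EGFR with 6011 bases, PDGFRB with 1926 or DDR1 with 860. A match describes letters only, and whether any of these sites is bound was not tested.

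Levels per kilobase (kb) of merged exon set the receptors apart by a wide range. EPHA2 was the highest by this measure in both clones, with 91.6 ± 15.0 CPM per kb in DKO and 107 ± 32.0 in control (SD, n = 2). EGFR followed with 26.7 ± 3.86 in DKO and 42.3 ± 3.00 in control, and MET, ERBB3 and ERBB2 lay between 12.3 and 26.2 CPM per kb on average in either clone. PDGFRA, PDGFRB and DDR1 averaged 0.962 to 4.37, MST1R 0.335 in DKO and 0.238 in control, and KIT was at or near 0. Next to each other in this order, the ranges of EGFR and ERBB3, of ERBB3 and MET, and of DDR1 and PDGFRB overlapped in DKO, and those of MET and ERBB3 in control. PDGFRA was the eighth in DKO and the sixth in control. The first rank depends on the merged exon lengths, 4159 bases for EPHA2 and 12521 for EGFR. In CPM without this divisor, EGFR averaged 530 and EPHA2 445 in control, against 334 and 381 in DKO.

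**Figure D1:**
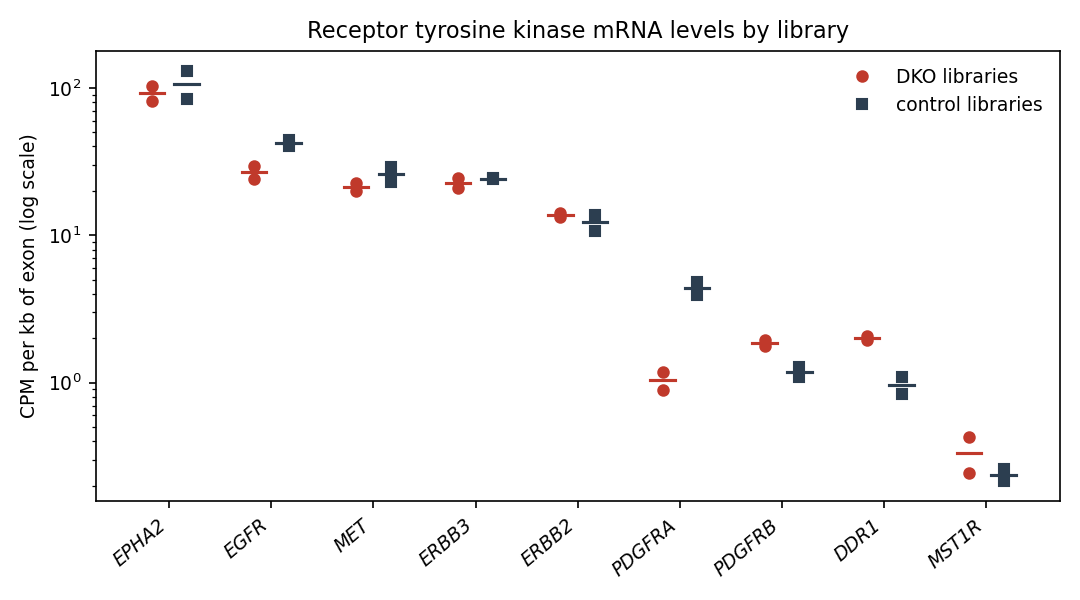
Levels of the receptors in CPM per kb of exon on a log axis, with each library as a point and the mean of a clone as a line; KIT, with 1 read in all, is left out. PDGFRA stood at 1.04 CPM per kb on average in DKO and 4.37 in control, while ERBB2 and ERBB3 overlapped between the clones.

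Of the receptors of PDGF, PDGFRA was lower in DKO, while PDGFRB leaned the other way without being called by edgeR's adjusted test. The log2 difference of PDGFRB was -0.048 with ERCC totals as the scale. PDGFRA (ENSG00000134853.11, chromosome 4, 54229097 to 54298247, hg38), the receptor of the PDGF-A, B and C chains, had 119 and 143 reads in DKO, against 453 and 479 in control. This is 11.6 and 8.70 CPM in DKO and 46.8 and 38.3 CPM in control. Each control library was far above each DKO library, and the means were 10.1 ± 2.04 CPM in DKO and 42.5 ± 5.99 CPM in control (SD, n = 2). The log2 fold change was -2.07 (SE 0.23), or a level 4.18 times higher in control. In such bulk RNA, fewer cells with the transcript and less of it per cell cannot be told apart. Without any 1 library it ran from -2.25 to -1.88. PDGFRB (chromosome 5, 150113837 to 150155872), which binds PDGF-B and PDGF-D, had 13.9 and 12.6 CPM in DKO, against 7.85 and 9.11 CPM in control. By this scaling the DKO libraries were both higher than either control library, at a log2 fold change of 0.64 (SE 0.25) that is -0.048 when ERCC spike-in totals set the scale. Separate ranges of this kind were seen for 49.9% of all tested genes. KIT (chromosome 4, 54657918 to 54740715), which lies next to PDGFRA, had no read in either DKO library and 1 read in control replicate 2, too few for any comparison.

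Sequence around the starts of PDGFRA and PDGFRB is shown because these related genes had log2 fold changes of opposite sign by TMM scaling, although PDGFRB was not called. Each window runs from 250 bases before to 50 bases after a RefSeq start on GRCh38.p14, with the GC box GGGCGG, searched on both strands, in capitals. RefSeq lists a pair of starts for PDGFRA, and counts per gene do not say which was used.
PDGFRA chr4:54229043-54229342 (plus strand): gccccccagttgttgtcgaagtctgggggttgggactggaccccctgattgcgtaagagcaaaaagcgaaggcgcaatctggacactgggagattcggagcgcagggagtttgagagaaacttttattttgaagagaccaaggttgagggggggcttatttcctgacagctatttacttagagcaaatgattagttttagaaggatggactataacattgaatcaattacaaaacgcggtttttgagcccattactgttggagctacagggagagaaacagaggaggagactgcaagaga
PDGFRA chr4:54233710-54234009 (plus strand): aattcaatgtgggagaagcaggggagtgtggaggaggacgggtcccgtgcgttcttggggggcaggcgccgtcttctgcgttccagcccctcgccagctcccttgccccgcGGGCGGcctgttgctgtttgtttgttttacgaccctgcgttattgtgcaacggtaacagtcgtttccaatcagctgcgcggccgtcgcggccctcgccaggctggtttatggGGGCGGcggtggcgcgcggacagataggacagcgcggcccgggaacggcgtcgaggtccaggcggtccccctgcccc
PDGFRB chr5:150155796-150156095 (minus strand): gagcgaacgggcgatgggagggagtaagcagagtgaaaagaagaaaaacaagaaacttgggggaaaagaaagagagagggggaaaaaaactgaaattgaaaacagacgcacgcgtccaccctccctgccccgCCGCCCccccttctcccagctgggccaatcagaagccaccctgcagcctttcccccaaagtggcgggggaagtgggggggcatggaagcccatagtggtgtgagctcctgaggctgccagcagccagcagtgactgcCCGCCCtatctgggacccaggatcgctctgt
The upstream PDGFRA window held no GC box, with 47.0% G and C and 8 CpG dinucleotides. The downstream one held 2 boxes, with 66.7% G and C and 32 CpG dinucleotides. The PDGFRB window held 2 boxes, with 59.3% G and C and 11 CpG dinucleotides. Across 35116 windows of the same length, 45.0% held a GC box and the median was 14 CpG dinucleotides. Windows of this kind matched 9 of the 10 receptors, and ERBB3 had none.

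In the EGF receptor family, EGFR was lower in DKO and its partners were near the control level. EGFR (chromosome 7, 55019021 to 55211628) had 368 and 299.9 CPM in DKO, against 556 and 503 CPM in control. The clones did not overlap, and the log2 fold change was -0.66 (SE 0.20), which edgeR's adjusted test did not call. DESeq2 called it at the same size, as did edgeR without the filter on low counts. With ERCC totals EGFR was at -1.31 (SE 0.55) and was not called. Without any 1 library its value ran from -0.79 to -0.53. ERBB2 (chromosome 17, 39687914 to 39730426), which has no ligand of its own, had 136 and 146 CPM in DKO and 110.5 and 142 CPM in control. ERBB3 (chromosome 12, 56076799 to 56103505), which binds neuregulins and has a weak kinase, had 220.4 and 189 CPM in DKO, against 218 and 219 CPM in control. The libraries of the clones overlapped for both, with log2 fold changes of 0.17 (SE 0.20) for ERBB2 and -0.085 (SE 0.19) for ERBB3. The ERBB2 value was -0.56 with ERCC totals.

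MET and MST1R, the receptors of hepatocyte growth factor and of macrophage-stimulating protein, are close relatives that differed widely in level. MET (chromosome 7, 116672390 to 116798386) had 160.2 and 140.2 CPM in DKO, against 205 and 163 CPM in control. Its DKO libraries were below both control libraries, but only just, with a log2 fold change of -0.28 (SE 0.19). MST1R (chromosome 3, 49887002 to 49903873) had 23 and 21 reads in DKO and 11 and 17 in control, or 2.24 and 1.28 CPM in DKO and 1.14 and 1.36 CPM in control. At so few reads the clones overlapped, and the log2 fold change of 0.44 had an SE of 0.45. With ERCC totals it was -0.21.

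EPHA2 and DDR1, receptors of ligands fixed to other cells or to the matrix, differed from each other. EPHA2 (chromosome 1, 16124337 to 16156087) had 337 and 425 CPM in DKO, against 350.5 and 539 CPM in control. Replicate 2 was the higher library in both clones, and the clones overlapped, with a log2 fold change of -0.22 (SE 0.24) that became 0.16 without control replicate 2. DDR1 (chromosome 6, 30876421 to 30900156) had 194 and 292 reads in DKO and 74 and 124 in control. These are 18.9 and 17.8 CPM in DKO, against 7.64 and 9.91 CPM in control, and the clones stood well apart. Its log2 fold change was 1.06 (SE 0.25), 2.08 times the control level, and 0.35 with ERCC totals. DDR1 lies in the major histocompatibility complex, of which hg38 also holds alternate sequences, and the sources used here do not say whether the authors' index held them.

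**Figure D2:**
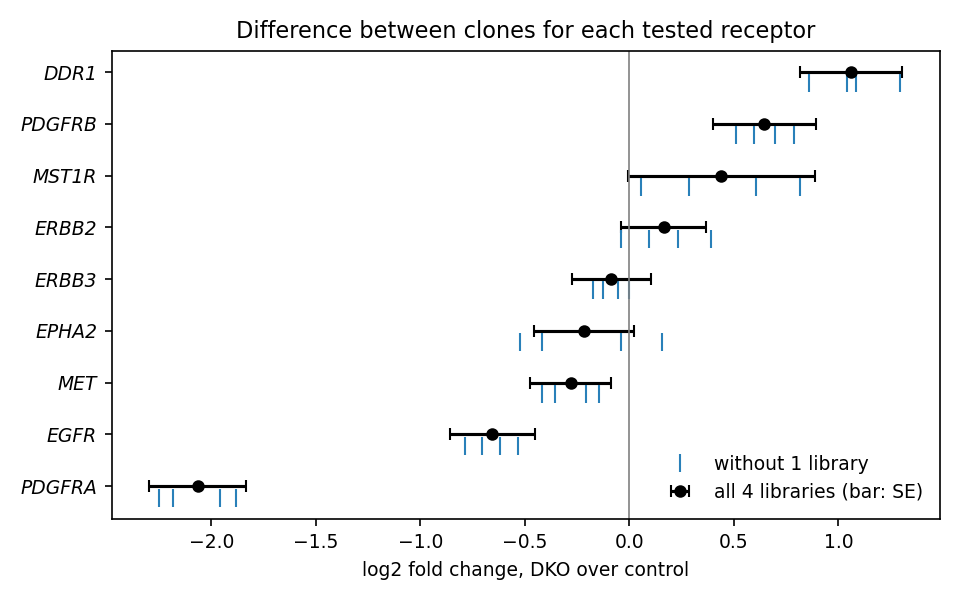
Log2 fold changes of the 9 tested receptors, DKO over control, as points with the SE as bars, and the values without each library in turn as ticks. PDGFRA lay at -2.07 and DDR1 at 1.06, and the ticks of ERBB2, ERBB3 and EPHA2 fell on both sides of 0; with ERCC totals, PDGFRB, ERBB2 and MST1R had negative values.

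Of the 10 receptors 9 passed the filter on low counts, and KIT did not. At an adjusted p under 0.05 (Benjamini-Hochberg over all tested genes), edgeR called 1 of the 9 higher (DDR1), 1 lower (PDGFRA) and 7 neither, against 5.37% of 13359 genes called (2.24% higher and 3.14% lower). The receptors were chosen from this contrast, so nothing is read from this count. For 5 of the 9 the CPM ranges of DKO and control were separate, with DKO above for 2 and below for 3, against 49.9% of all tested genes (23.7% above and 26.2% below). The median log2 fold change of the 9 was -0.085, and that of all tested genes 0.0015. Without DKO replicate 1 or without DKO replicate 2, DDR1 was not called, at log2 fold changes of 1.04 and 1.08. The number of all genes called was 235 without DKO replicate 1, 218 without DKO replicate 2 and 2172 without control replicate 1, against 718 (299 higher and 419 lower) with all libraries. ERCC rows took 1.62% and 2.10% of the counts in the DKO libraries and 1.47% and 0.946% in the control libraries, so this share varied within a clone. On the ERCC scale the SE was 0.52 for PDGFRB, 0.53 for ERBB2 and 0.61 for MST1R, so their signs there are not settled. Scaling by ERCC totals gave 22 higher and 307 lower genes and placed the median of all tested genes at -0.68. Relative to that shift PDGFRA was at -2.02, EGFR at -0.63, PDGFRB at 0.63 and DDR1 at 1.03. Subtracting the median takes most of the ERCC scaling out again, so their nearness to the TMM values is built in and is no separate evidence.

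Ratios of receptors inside a library do not depend on how libraries are scaled. The level of PDGFRA per kb was 0.610 and 0.507 of that of PDGFRB in the DKO libraries, against 4.37 and 3.08 times in the control libraries. PDGFRB was thus the more abundant PDGF receptor mRNA in both DKO libraries and PDGFRA in both control libraries. DDR1 was at 0.0704 and 0.0813 of the EGFR level in DKO, against 0.0188 and 0.0270 in control. The ratio of EGFR to ERBB2 was 2.22 and 1.69 in DKO and 4.15 and 2.91 in control. These 3 ratios did not overlap between the clones. The ratio of EGFR to EPHA2 was 0.363 and 0.234 in DKO and 0.527 and 0.310 in control, and this one overlapped. The ratios were chosen with the levels known, and levels of 49.9% of all tested genes did not overlap either, so the separation is a description only. Out of the summed level of the 10 receptors, PDGFRA took 0.675% and 0.481% in DKO and 2.41% and 1.66% in control, while EPHA2 took 45.9% and 55.0% in DKO and 42.2% and 54.5% in control.

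**Figure D3:**
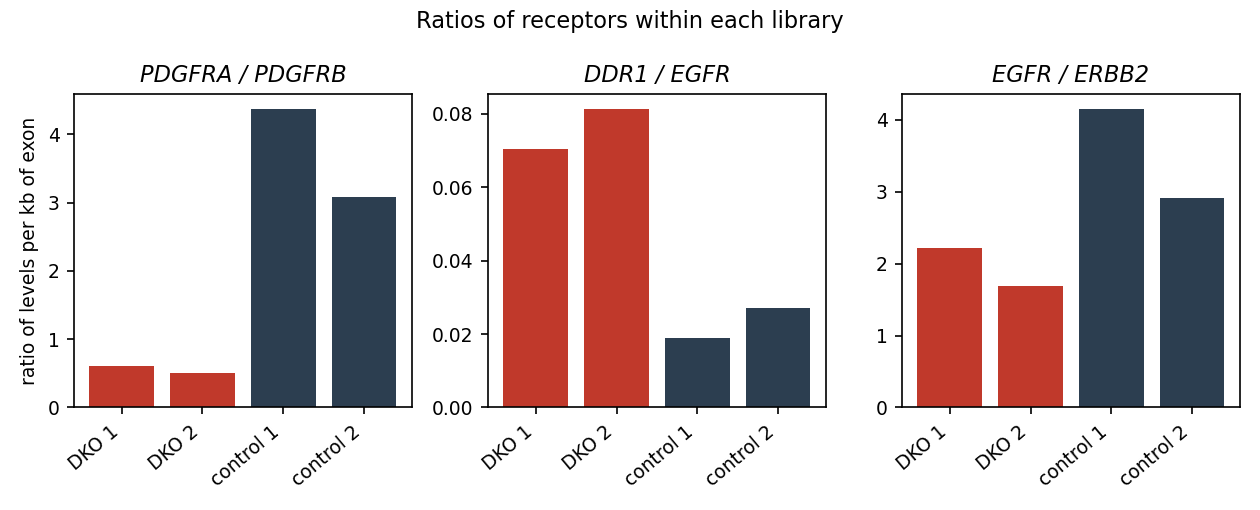
Ratios of receptor levels per kb of exon in each library, as bars from 0, for PDGFRA over PDGFRB, DDR1 over EGFR and EGFR over ERBB2. The ratio of the PDGF receptors was below 1 in both DKO libraries and above 3 in both control libraries.

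Genes near or overlapping the receptors were read for their own values. Within 1000000 bases of PDGFRA, 4 genes were tested, and none was called. LNX1, a ubiquitin ligase gene, was at -0.92 (SE 0.27, edgeR adjusted p = 0.0644), FIP1L1 at -0.35, SCFD2 at -0.34 and CHIC2 at -0.13, all below 0 on the log2 scale. KDR, the VEGF receptor gene of the same cluster, had no reads. The 50 nearest tested genes of PDGFRA had a median log2 fold change of -0.18, with 17 above 0. Those of EPHA2 had a median of -0.39, with 5 of 50 above 0, the lowest of the 10 receptors' neighbour medians. Of all tested genes 50.1% were above 0. For the neighbours of the other receptors medians ran from -0.18 to 0.18, with 17 to 31 of 50 above 0. EGFR-AS1, an antisense RNA inside EGFR, had 7.01 and 8.95 CPM in DKO, against 4.96 and 3.28 CPM in control (log2 fold change 0.99, SE 0.30, edgeR adjusted p = 0.0684), on the other side of 0 from EGFR. The sources used here do not say whether the counting used strand, so reads in the 186 exon bases that the pair shares cannot be assigned to either. A read-through gene, AC058822.1, shares 1533 of the 9732 exon bases of PDGFRA (15.8%) on the same strand and had no counts. The rule for reads in shared bases is not given in the labels.

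Messenger RNAs of the ligands were followed as a list of 26 genes taken from general knowledge. Of the 16 tested, 1 rose, 1 fell and 14 did not pass, against 2.24% of all tested genes higher and 3.14% lower. The median log2 fold change was 0.097, against 0.0015 over all tested genes. EGF, the founding ligand of EGFR, rose to 10.6 and 11.5 CPM in DKO, against 3.30 and 3.04 CPM in control (1.82, SE 0.28, edgeR adjusted p = 0.00162). Without any 1 library EGF ran from 1.73 to 1.89, and with ERCC totals it was 1.13 and not called. BTC (betacellulin), another ligand of EGFR, fell to 1.56 and 0.730 CPM in DKO, against 3.61 and 3.84 CPM in control (-1.77, SE 0.41, edgeR adjusted p = 0.0223). BTC rests on few reads, and neither the fit without DKO replicate 2 (-1.27) nor DESeq2 called it (DESeq2 adjusted p = 0.0538). Ligand calls in fits without 1 library are not read as a count, since the number of all genes called varied widely too.

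Ligands of the PDGF receptors were all measured except PDGFD, which had 0 to 4 reads a library. PDGFA had 45.5 and 50.6 CPM in DKO and 36.1 and 38.1 CPM in control, and PDGFB had 23.5 and 26.2 CPM in DKO and 12.4 and 20.0 CPM in control. With PDGFC they lay at 0.38, 0.62 and 0.13 on the log2 scale, and none passed. KITLG, the ligand of KIT, had 11.5 and 8.83 CPM in DKO, against 20.3 and 14.5 CPM in control (-0.77, SE 0.25, edgeR adjusted p = 0.0916). HGF, the ligand of MET, had 0 to 2 reads a library and TGFA none. MST1, which encodes the ligand of MST1R, had 13.1 and 12.8 CPM in DKO, against 7.95 and 8.87 CPM in control (0.63, SE 0.24, edgeR adjusted p = 0.155). EFNA1, a ligand of EPHA2, was level between the clones, with 12.8 and 12.5 CPM in DKO and 12.1 and 13.6 CPM in control. Other ephrin-A genes were not all level. EFNA4 had 7.79 and 9.13 CPM in DKO, against 12.5 and 14.6 CPM in control (-0.66, SE 0.25, edgeR adjusted p = 0.141). EFNA2 was at -0.24 (SE 0.24), and its libraries overlapped between the clones.

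**Figure D4:**
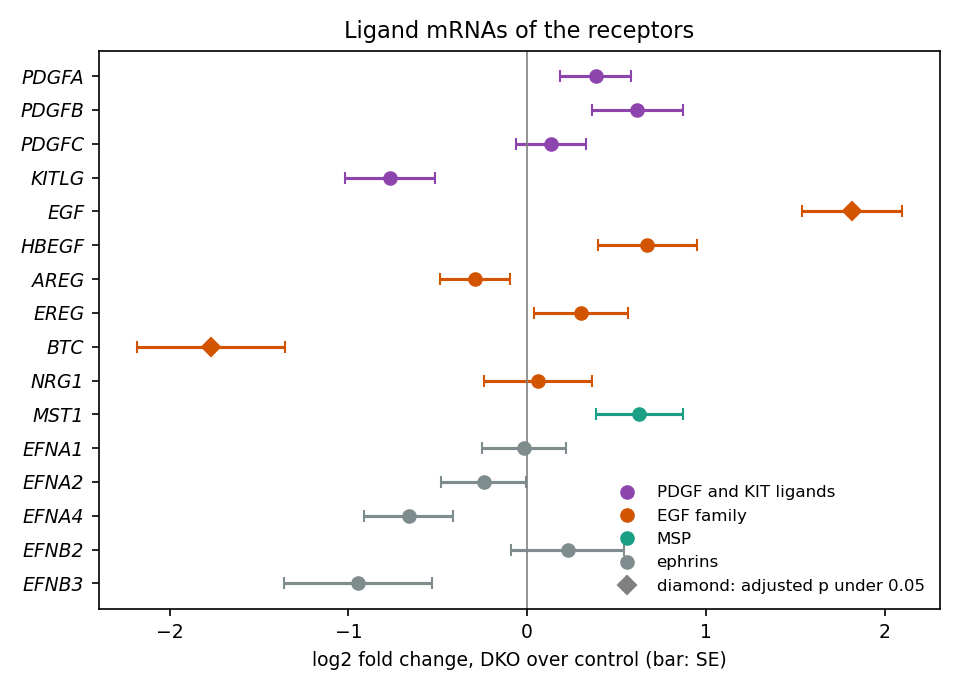
Log2 fold changes of the 16 tested ligand mRNAs, DKO over control, with SE bars, coloured by ligand family; diamonds passed the adjusted p threshold. EGF lay at 1.82 and BTC at -1.77, and the PDGF chains between 0.13 and 0.62.

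The 44 other receptor tyrosine kinases of the list showed how the 10 sat in the family. Of these, 15 had no reads in any library and 17 were tested. ROR1, a Wnt-binding receptor, fell to 9.93 and 7.73 CPM in DKO, against 19.9 and 15.9 CPM in control (log2 fold change -1.02, SE 0.25, edgeR adjusted p = 0.0255), and it was the 1 gene of the 17 that passed, against 5.37% of all tested genes. The list's median was -0.083. ROR1 was not called without DKO replicate 1 or DKO replicate 2, nor with ERCC totals. FGFR4, the FGF19 receptor of hepatocytes, was the most abundant of the list, with 94.3 CPM per kb in DKO and 109.8 in control on average. It lay close to EPHA2 and did not pass (-0.21, SE 0.22, edgeR adjusted p = 0.652).

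Genes that act on the receptors or below them did not pass in the edgeR fit for 3 of the lists, where 5.37% of all tested genes did. That share is at the adjusted threshold. The share at an unadjusted p under 0.05 was not worked out, so nothing is read from counts at that threshold. Among 12 tested proteases and protease inhibitors that release or activate ligands, none was called (median -0.0033). At an unadjusted edgeR p under 0.05, 1 was higher and 3 were lower, and DESeq2 called 0. HPN, the liver protease hepsin that activates HGF, had 10.7 and 12.3 CPM in DKO, against 17.4 and 20.6 CPM in control (-0.71, edgeR adjusted p = 0.0941). ST14, which encodes matriptase, had 3.89 and 4.08 CPM in DKO, against 1.76 and 2.40 CPM in control (0.93, edgeR adjusted p = 0.136). For this list, calls in fits without 1 library are not read, since the number of all genes called moved as well.

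Among 39 tested adaptors and proximal effectors, from GRB2 and SHC1 to the RAS, RAF, ERK and AKT genes, none was called either (median -0.10). At an unadjusted edgeR p under 0.05, 1 was higher and 3 were lower, and DESeq2 called 0. Calls of adaptors and effectors in fits without 1 library are not read here, since the number of all genes called changed widely between those fits. PLCG2, a phospholipase that docks on receptors, was at 0.682 and 1.40 CPM in DKO, against 2.37 and 3.28 CPM in control (-1.36, SE 0.44, edgeR adjusted p = 0.0834). VAV2, which also docks on receptors, had 107 and 103 CPM in DKO, against 134 and 161 CPM in control (-0.48, edgeR adjusted p = 0.175). Among 25 tested genes that switch receptors off, none was called (median 0.071). Here 3 were higher and 0 lower at an unadjusted edgeR p under 0.05, and DESeq2 called 0. For these lists too, the unadjusted counts have no share of all tested genes beside them and are a description only. The sorting protein gene STAM (0.47, edgeR adjusted p = 0.2099) and the ubiquitin ligase gene CBL (0.45, edgeR adjusted p = 0.213) had the smallest p-values.

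Transcripts used elsewhere as a readout of ERK activity formed a list of 9 genes. Of 8 tested, 1 fell and 7 did not pass, with a median of 0.091. Of all tested genes 5.37% were called, so a single call among 8 says nothing particular about the list. DUSP4, a phosphatase of ERK, fell to 63.1 and 79.0 CPM in DKO, against 108 and 148 CPM in control (-0.84, SE 0.22, edgeR adjusted p = 0.0384). It was not called without DKO replicate 1 (-0.67), DKO replicate 2 (-1.04) or control replicate 2 (-0.56), nor with ERCC totals. Calls of the whole list in fits without 1 library are not read, since the number of all genes called varied between those fits.

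The genes whose pattern over the 4 libraries was most like that of PDGFRA were sought among 11949 tested protein-coding genes. Likeness was the Euclidean distance of log2(CPM + 0.5) values, each centred on its gene's mean. The 5 nearest were TENM2 (distance 0.245), PRDM1 (0.245), LSAMP (0.340), FOLH1 (0.344) and WIF1 (0.368). TENM2, a neuronal adhesion protein gene, had 4.58 and 3.35 CPM in DKO, against 16.0 and 13.4 CPM in control. PRDM1, which encodes the repressor BLIMP1, had 0.876 and 0.730 CPM in DKO, against 4.54 and 3.84 CPM in control. With 4 libraries in 2 clones, such a likeness mostly repeats the size of the difference between the clones once 0.5 CPM is added. The fitted log2 fold changes ran from -1.90 for TENM2 to -3.05 for WIF1, against -2.07 for PDGFRA. WIF1 had 4 and 2 reads in DKO, and at such low levels the added 0.5 CPM shrinks the difference.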

How the data were processed

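Read counts of total RNA from 2 DKO and 2 control libraries of Huh7 cells were used as the authors deposited them, 1 whole-number count per gene symbol and library with no normalization. Per the labels' protocols, ERCC spike-in RNA was added before ribosomal RNA depletion, the kit kept the strand, and single reads of 80 bases were taken. Subread 1.6.3 with featureCounts, STAR 2.5.3a, DESeq2 and the hg38 build are listed in the submitters' processing notes. Which annotation was counted, with which strand setting, and how multiply aligned reads were handled is not stated there.

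The 92 ERCC rows were left out of library sizes and tests. Genes were kept by filterByExpr, libraries scaled by TMM, and DKO compared with control by edgeR 4.0.16's quasi-likelihood test (R 4.3.3) with group as the only term, adjusted by Benjamini-Hochberg over 13359 genes. SE is the log2 fold change divided by the square root of F. The scripts' test was run on simulated data first. CPM are counts over the library's gene total, and precision covers counting error and the spread of 2 libraries only, so that p-values measure a spread that may be technical. A single gene could not reach an exact permutation p under 0.333. Libraries of a clone differed beyond sampling noise (chi-square per degree of freedom 27.1 for DKO and 33.6 for control). Positions, exon lengths and 3′ UTRs are from GENCODE release 29 (hg38), which matched 40718 gene rows once, and promoter windows from RefSeq on GRCh38.p14. Alternatives were DESeq2 1.42.0, its size factors, ERCC totals, no filter, a replicate block and leaving out each library. The receptors and all lists were chosen with earlier results of these data known. Named list genes are up to 5 called genes per list, or the 2 of smallest p where none was called; a few further ligands and family members were named after their values were seen. Protein sequences were not used here.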

Additional observations from a re-analysis of the deposited data

How the results depend on the processing

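The log2 fold change of PDGFRA, which was chosen from this contrast, lay between -2.70 and -1.88 over the 9 alternatives, as a description. For the 9 tested receptors, 68 of the 81 alternative values kept their direction and their side of the threshold. Values on the other side of 0 were those of PDGFRB (-0.048), ERBB2 (-0.56) and MST1R (-0.21) with ERCC totals, and, without 1 library, those of ERBB2 (-0.038 to 0.39), ERBB3 (-0.17 to 0.00023) and EPHA2 (-0.52 to 0.16). With ERCC totals 329 genes, 1 receptor (PDGFRA), 0 other receptor tyrosine kinases, 1 ligand, 1 adaptor or effector and 0 ERK output transcripts were called. With no filter on low counts, 1194 genes, 2 other receptor tyrosine kinases and 1 adaptor or effector were. DESeq2 called 1 ligand. Leaving out 1 library gave 218 to 2172 genes, 1 to 2 receptors, 0 to 2 other receptor tyrosine kinases, 1 to 5 ligands, 0 to 2 proteases or inhibitors, 0 to 4 adaptors or effectors and 0 to 2 ERK output transcripts. A fit without 1 library leaves 1 library in a clone, which is assumed to vary like the others. List counts from such fits are not read as results about the lists, since the number of all genes called moved as well. The labels state no pairing, although libraries with the same number deviated together (correlation 0.507 across genes). With the replicate number as a block, 4021 of 13359 tested genes were called, with 4 receptors among them (PDGFRA, DDR1, EGFR at -0.66 and PDGFRB at 0.64). Also called were 2 other receptor tyrosine kinases, 8 ligands and 4 proteases or inhibitors. So were 9 adaptors or effectors, 8 receptor down-regulators and 4 ERK output transcripts. Beside that number of all genes, the list counts are a description only. The cause was not tested for any of these. Depth limits KIT and MST1R most, with 1 and 72 reads in all.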
